A study of Mus musculus with 21 samples.

Results

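The expression of 10 genes of the p53 response was followed through RNA-seq of mouse embryonic stem cells (mESCs) lacking the cohesin regulators PDS5A or PDS5B. The genes were taken by symbol: Trp53, which encodes p53, and its targets Cdkn1a, Mdm2, Ccng1, Trp53inp1, Bax, Bbc3, Sesn2, Phlda3 and Btg2. All 10 of these genes, out of 23412 gene symbols in the count tables, were among the 14963 genes that passed the filter on low counts. The cells were the male v6.5 mESC line, grown on gelatin. WT cells received the siGLO transfection control (WT siGLO) or an siRNA to Pds5b (WT siPds5b). A Pds5a knockout line made by CRISPR, Pds5a-KO, received siGLO, siPds5b, siStag1 or siStag2, and a Pds5b knockout line, Pds5b-KO, received siGLO. Every condition was therefore transfected, with 50 nM siRNA for 48 h, and had 3 libraries, 21 in all. Each knockout was 1 clonal line, so that a difference between a knockout and WT cannot be told apart from a difference between clones. PDS5A and PDS5B bind cohesin, the ring complex that folds DNA into loops and holds sister chromatids together, and STAG1 and STAG2 are alternative subunits of that ring.

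p53 is a transcription factor that is kept scarce by MDM2, a ubiquitin ligase whose own gene p53 activates, and that is stabilised after DNA damage and other stress. It binds DNA as a tetramer at a pair of half-sites and raises genes that halt the cell cycle (Cdkn1a, encoding the kinase inhibitor p21, Btg2 and Ccng1), promote apoptosis (Bax, Bbc3 encoding PUMA, Phlda3, Trp53inp1) or handle metabolic stress (Sesn2). mESCs carry abundant p53 RNA and protein while cycling fast with a short G1 phase. Much of the control of p53 is on the protein, which these libraries did not measure.

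To describe sequences like the p53 consensus near these genes, promoter windows of 300 bases were searched. They ran from 250 before to 50 after each RefSeq start site (GRCm38.p6), and DNA outside them was not searched. The half-site consensus is 10 bases long around the core CNNG, in which each N is A or T, and reads the same way on both strands, so that 1 search covers both. Windows were given for 9 of the 10 genes, all but Trp53inp1, which was therefore not searched. They were 12 windows in all, since Cdkn1a and Bbc3 have several start sites. The whole half-site was present in 5 of the 12 windows, against 8.36% of all 32851 windows. A full site of 20 bases, that is 2 half-sites without a spacer, both cores kept and at most 3 of the flanking bases off the consensus, was present in 3 of 12 windows, against 0.572% of all windows. These full sites contain or overlap half-sites in Trp53 and Cdkn1a. They were as follows, on the plus strand, with the cores in capitals.
Cdkn1a, chr17:29090928-29090947, 1 flanking mismatch: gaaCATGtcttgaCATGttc
Trp53, chr11:69580284-69580303, 3 flanking mismatches: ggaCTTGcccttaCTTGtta
Bbc3, chr7:16309486-16309505, 3 flanking mismatches: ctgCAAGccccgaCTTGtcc

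The Cdkn1a site lay 51 to 32 bases before the first of its 2 RefSeq start sites (position 0), and the second start site is 2790 bases further downstream. The promoters of 3 more genes held a half-site alone, Bax (aggCAAGctt), Mdm2 (gaaCTTGcct) and Ccng1 (gggCAAGcct). To set these in context, the 200 bases just upstream of the first annotated exon are given for Cdkn1a and for Mdm2 and Ccng1, which changed between conditions, with the half-site and site cores in capitals and each strand read in the direction of transcription. Cdkn1a held a second half-site, ggaCTAGctt, just before the full one.
Cdkn1a, chr17:29090776-29090975, plus strand: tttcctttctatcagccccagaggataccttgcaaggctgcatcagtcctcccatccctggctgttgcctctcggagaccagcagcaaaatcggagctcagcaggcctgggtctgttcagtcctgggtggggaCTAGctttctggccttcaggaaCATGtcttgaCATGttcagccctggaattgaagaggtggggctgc
Mdm2, chr10:117710759-117710958, minus strand: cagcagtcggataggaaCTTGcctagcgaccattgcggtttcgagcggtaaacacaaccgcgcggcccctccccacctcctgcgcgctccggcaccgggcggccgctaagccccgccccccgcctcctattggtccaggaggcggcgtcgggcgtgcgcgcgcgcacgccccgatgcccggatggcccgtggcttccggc
Ccng1, chr11:40755312-40755511, minus strand: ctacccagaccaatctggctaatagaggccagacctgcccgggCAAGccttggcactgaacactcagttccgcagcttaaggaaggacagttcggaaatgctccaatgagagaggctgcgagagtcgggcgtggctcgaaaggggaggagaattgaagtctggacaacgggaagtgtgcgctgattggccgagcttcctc
A match in these windows is a description of the letters, not evidence of binding, and the windows of Sesn2, Phlda3 and Btg2 held none.

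**Figure D1:**
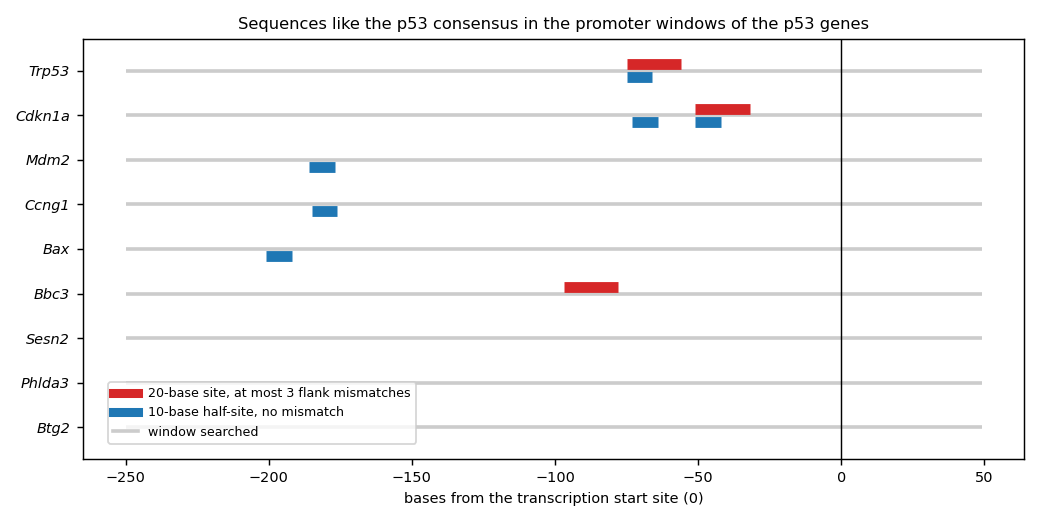
Positions of sequences like the p53 consensus in the promoter windows of the p53 genes other than Trp53inp1, for which no window was given. The horizontal axis is the distance in bases from the RefSeq start site (0), each grey line is the window searched, red bars are 20-base sites and blue bars are 10-base half-sites. All of them lie upstream of the start site, and the Cdkn1a site is the nearest to it, at 51 to 32 bases before.

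The libraries held 17311090 to 23989198 counts each, and the lowest normalised count of any of the 10 genes in any library was 544, for Cdkn1a. The siRNAs lowered their targets by 1.52 (Pds5b in WT), 1.39 (Pds5b in Pds5a-KO), 2.08 (Stag1) and 1.90 (Stag2) on the log2 scale, and Pds5b fell by 3.01 in Pds5b-KO. The Pds5a RNA was only -0.24 in Pds5a-KO siGLO relative to WT siGLO on that scale, and as an edit can leave the RNA in place this value does not check the genotype. All 6 mESC markers (Pou5f1, Sox2, Nanog, Zfp42, Esrrb and Dppa5a) were detected, and their summed normalised count was 95920 to 99319 in WT siGLO, 77967.0 to 85453 in Pds5a-KO siGLO, 66168 to 79172 in Pds5b-KO siGLO, 58222 to 62012 in Pds5a-KO siPds5b and 51003 to 60634 in Pds5a-KO siStag2. The summed count of 6 fibroblast or feeder markers was 1168 to 1607 in WT siGLO, 1804 to 2259 in WT siPds5b, 417 to 533 in Pds5b-KO siGLO and 343 to 1551 in the Pds5a-KO conditions. In bulk RNA, fewer cells of a type and less RNA per cell cannot be told apart. The part of these markers in the results below was not tested.

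Values below are counts normalised by the trimmed mean of M values (TMM) and scaled to the mean library, in the order of libraries 1, 2 and 3. Fold changes are log2 values from edgeR's quasi-likelihood test on all 14963 genes, and a gene is called when its Benjamini-Hochberg adjusted p is under 0.01. Nothing in the labels says whether the 3 libraries of a condition came from separate cultures, and the p-values then measure the spread between these libraries. Complete separation of the libraries of 2 conditions was common among all tested genes. Relative to WT siGLO it held for 40.8% of them in Pds5a-KO siGLO, 45.3% in Pds5b-KO siGLO and 11.2% in WT siPds5b. It held for 54.3% in Pds5a-KO siPds5b, 46.1% with siStag1 and 52.4% with siStag2.

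Per kilobase of annotated exon, the 10 genes spanned a wide range in WT siGLO. Bax had the highest level, 121 ± 3.2 CPM per kb (counts scaled to library size, per kilobase, mean ± SD, n = 3), followed by Ccng1 at 85.5 ± 3.82 and Trp53 at 65.5 ± 2.57. Phlda3, at 34.8 ± 6.33, and Trp53inp1, at 33.8 ± 0.574, differed by less than the spread of Phlda3. Mdm2 (25.7 ± 0.197) and Sesn2 (23.4 ± 3) were also within 1 SD of Sesn2 from each other, and Bbc3 followed at 20.3 ± 3.74. Cdkn1a (16 ± 3.29) and Btg2 (15.5 ± 1.35) were lowest and did not differ beyond their spread. Trp53inp1 was above Phlda3 in all 6 other conditions, and Btg2 above Cdkn1a in all 5 knockout conditions. In Pds5a-KO siPds5b Trp53inp1 was at 60.7 ± 2.87 and Phlda3 at 39.6 ± 6.8. Btg2, at 21.9 ± 5.74, and Cdkn1a, at 18.1 ± 4.37, were within their spread there. The counting of reads was not described with a strand setting, and an exon of Bax shares 192 bases with Gm45808 on the same strand and Cdkn1a shares 273 bases with AC167363.2 on the opposite strand, so reads there could fall to either gene. Trp53 also has a processed pseudogene, Trp53-ps.

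**Figure D2:**
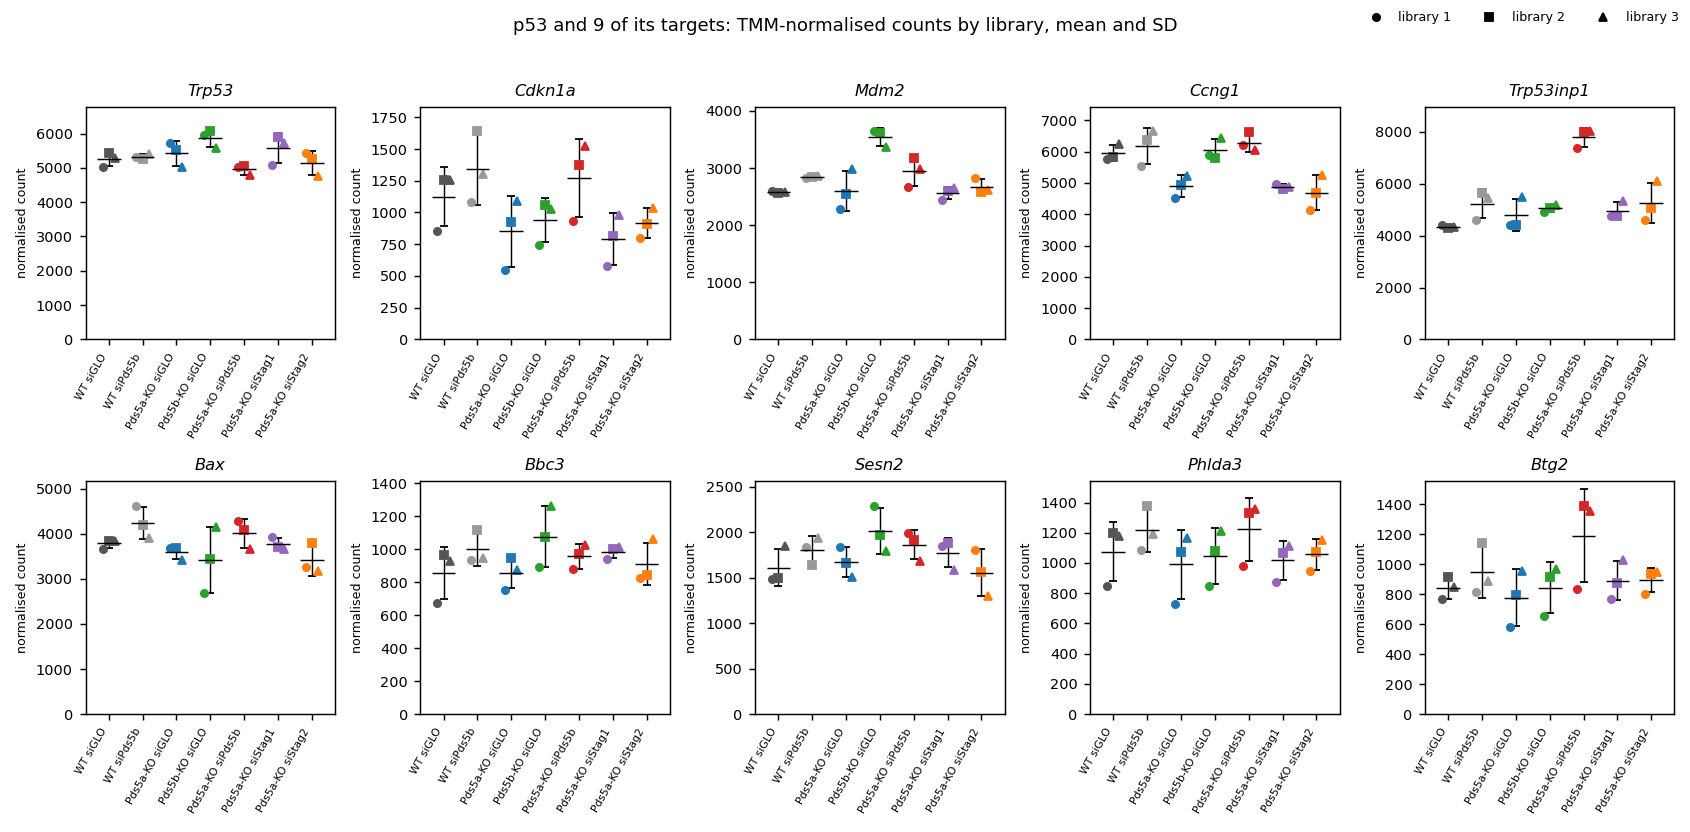
Normalised counts of the 10 p53 genes (vertical axes, from 0) in each of the 7 conditions (horizontal axes). Points are single libraries, with the symbol giving the library number, and black lines are the mean and SD of 3 libraries. Trp53inp1 stands at 7366 to 8017 in Pds5a-KO siPds5b, above the highest library of any other condition (6114), and library 1 (circle) is the lowest of its condition throughout for Cdkn1a, Bbc3, Phlda3 and Btg2.

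Trp53 itself varied little. Its condition means ranged 1.18-fold, from 4956 in Pds5a-KO siPds5b to 5870.2 in Pds5b-KO siGLO. In WT siGLO its counts were 5029, 5435 and 5292, in Pds5a-KO siGLO 5718, 5525 and 5021, in Pds5b-KO siGLO 5971, 6061 and 5578 and in Pds5a-KO siPds5b 5027, 5063 and 4779. The Pds5b-KO libraries lay above those of WT siGLO and of Pds5a-KO siPds5b without overlap. Of all tested genes 45.3% and 47.2% did not overlap in these comparisons, in either direction. The difference from WT was 0.16 ± 0.07 (SE), adjusted p = 0.0786, and so not called. The pair of extremes differed by -0.24 ± 0.07 (SE), adjusted p = 0.00717, a comparison chosen after its values were seen. That call was lost without any 1 of 5 of the 6 libraries compared (adjusted p up to 0.0245).

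Mdm2, the inhibitor of p53 that p53 also activates, was higher in the Pds5b knockout. Its counts were 2605, 2565 and 2587 in WT siGLO and 3639.7, 3615 and 3361 in Pds5b-KO siGLO, where every library exceeded every WT library. The libraries of these 2 conditions did not overlap for 45.3% of all tested genes, in either direction. The log2 fold change was 0.45 ± 0.08 (SE), adjusted p = 0.000124. In Pds5a-KO siGLO Mdm2 had 2277, 2550.5 and 2975 counts, a range that encloses all WT siGLO libraries, and the direct comparison of the 2 knockouts gave -0.44 ± 0.08 (SE), adjusted p = 0.000154. Both calls held in all 12 alternative fits of each comparison. In the same Pds5b-KO libraries 4 of 6 mESC markers and 2 of 6 fibroblast markers were called lower than in WT siGLO, and their part was not tested. In Pds5a-KO siPds5b the counts were 2675, 3173 and 2976, above WT siGLO without overlap but short of the threshold (0.19 ± 0.08 (SE), adjusted p = 0.0568), and below Pds5b-KO (-0.27 ± 0.08 (SE), adjusted p = 0.00884). This last comparison was chosen after seeing the values and lost its call without either of 2 Pds5b-KO libraries or of 2 Pds5a-KO siPds5b libraries, with adjusted p up to 0.0487, and without the libraries numbered 1 (0.0622). WT siPds5b, with Pds5b lowered acutely, had 2828, 2849.6 and 2869 counts, all above WT siGLO, and was not called (0.14 ± 0.08 (SE), adjusted p = 1).

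Trp53inp1, a stress protein of the nucleus and of autophagosomes that favours p53 activity and cell death, had the largest change of the 10 genes. WT siGLO libraries held 4420.2, 4277 and 4318 counts and Pds5a-KO siGLO libraries 4429, 4418 and 5495. With Pds5b also depleted, in Pds5a-KO siPds5b, they held 7366, 7989 and 8017. No library of any other condition reached the lowest of these 3. The increase was 0.84 ± 0.09 (SE), adjusted p = 1.55e-07, relative to WT siGLO and 0.70 ± 0.09 (SE), adjusted p = 1.39e-05, relative to Pds5a-KO siGLO. Against WT siPds5b, which received the same siRNA and held 4607, 5650.2 and 5461, it was 0.57 ± 0.09 (SE), adjusted p = 3.57e-05. The other depletions in the same knockout held 4762, 4770.4 and 5329.6 (siStag1) and 4612, 5082 and 6114 (siStag2), and Pds5a-KO siPds5b was above them by 0.65 ± 0.09 (SE), adjusted p = 4.9e-05, and by 0.56 ± 0.09 (SE), adjusted p = 0.000462. It was also above Pds5b-KO siGLO (4923, 5048 and 5192) by 0.62 ± 0.09 (SE), adjusted p = 1.36e-05. These last 3 comparisons were added after seeing the data. Each of the 6 differences passed the threshold in all 12 of its alternative fits.

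Whether the effect of siPds5b on Trp53inp1 depended on PDS5A was tested as the difference between the siPds5b effect in Pds5a-KO and that in WT. In WT siPds5b all 3 libraries were above all 3 WT siGLO libraries, and the change of 0.27 ± 0.09 (SE), adjusted p = 1, was not called. The difference of the effects was 0.43 ± 0.13 (SE), adjusted p = 0.0719, and in 18 alternative fits the adjusted p ranged from 0.0109 to 0.201. A larger effect in the knockout was therefore not shown at the threshold for Trp53inp1, nor for any other of the 10 genes (0 called, 1.48% of all genes called; 2 of the 10 and 2589 of all genes had an unadjusted p under 0.05).

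Ccng1, which encodes cyclin G1 and is a strong p53 target, stood below WT siGLO in Pds5a-KO cells with siGLO, siStag1 or siStag2. Of these differences only the last 2 were called. It was higher in Pds5a-KO cells with Pds5b depleted than in those with siGLO. WT siGLO libraries held 5780.5, 5822 and 6259.8 counts, Pds5a-KO siGLO 4521, 4937 and 5238, Pds5a-KO siStag1 4969, 4798 and 4873 and Pds5a-KO siStag2 4142, 4668 and 5263. All 9 of these knockout libraries were below all 3 of WT siGLO. Complete separation from WT siGLO, in either direction, held for 40.8% (siGLO), 46.1% (siStag1) and 52.4% (siStag2) of all tested genes. The differences from WT siGLO were -0.28 ± 0.08 (SE), adjusted p = 0.0113, for siGLO, -0.29 ± 0.08 (SE), adjusted p = 0.009, for siStag1, and -0.34 ± 0.08 (SE), adjusted p = 0.00156, for siStag2, so that only the last 2 passed. Relative to Pds5a-KO siGLO neither STAG depletion was called. The differences were -0.0055 ± 0.08 (SE), adjusted p = 0.99, with siStag1 and -0.06 ± 0.08 (SE), adjusted p = 0.67, with siStag2. In Pds5a-KO siPds5b the counts were 6203, 6624 and 6049, overlapping WT siGLO, and higher than in Pds5a-KO siGLO by 0.36 ± 0.08 (SE), adjusted p = 0.00348. They were also higher than with siStag1 (0.37 ± 0.08 (SE), adjusted p = 0.00335) and siStag2 (0.42 ± 0.08 (SE), adjusted p = 0.00166). Pds5b-KO siGLO held 5905, 5814 and 6449, and the difference of Pds5a-KO siGLO from it was -0.31 ± 0.08 (SE), adjusted p = 0.00601. These calls sat close to the threshold. The siStag1 call was lost without any 1 of its 6 libraries (adjusted p 0.0145 to 0.0448) and the siStag2 call without siStag2 library 1 (0.0172). The increase with siPds5b was lost without Pds5a-KO siGLO library 1 (0.0224) or 2 (0.0127) or without siPds5b library 2 (0.0231), while the Pds5a-KO siGLO decrease passed under DESeq2 (0.00416), RLE factors (0.00925) and without Pds5a-KO siGLO library 3 (0.00764). The difference between the knockouts was lost without Pds5a-KO library 1 (0.0216) or 2 (0.0134) or without Pds5b-KO library 3 (0.0165). The calls over siStag1 and siStag2 were likewise lost without siPds5b library 2 (0.0231 and 0.0123), the first without siStag1 library 2 (0.0181) or 3 (0.0128) and the second without siStag2 library 1 (0.0179).

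Cdkn1a, Btg2 and Phlda3 were set apart by their spread. Cdkn1a held 856, 1256 and 1259 counts in WT siGLO, 544, 926 and 1087 in Pds5a-KO siGLO, 740.0, 1057 and 1029.9 in Pds5b-KO siGLO and 929.6, 1371 and 1521 in Pds5a-KO siPds5b. WT siPds5b held 1084, 1639 and 1303, Pds5a-KO siStag1 576, 811 and 982 and Pds5a-KO siStag2 796, 913 and 1036. The library numbered 1 was lowest in 7 of 7 conditions, and the same was true of Bbc3, Phlda3 and Btg2, against 1.32% of all tested genes. The median coefficient of variation within a condition was 20.8% for Cdkn1a, 18.2% for Btg2 and 17.2% for Phlda3, against 4.37% for Trp53 and 4.35% for Mdm2. The labels do not say what a library number marks. The share of counts from Rn45s, the ribosomal RNA precursor, was highest in library 1 in 4 of 7 conditions (0.847% to 1.44% over the 7 libraries numbered 1, 0.527% to 0.940% over those numbered 2 and 0.477% to 2.68% over those numbered 3), and its part in this pattern was not tested. Btg2, an antiproliferative gene, held 767, 914 and 845 in WT siGLO, 579, 798 and 955 in Pds5a-KO siGLO and 832, 1388 and 1354 in Pds5a-KO siPds5b, so that libraries 2 and 3 of the last condition were above all libraries of the other 2 and library 1 was not. Across all conditions Cdkn1a means ranged 1.70-fold and Btg2 means 1.53-fold, and neither was called in any comparison by edgeR on all 21 libraries without the block. DESeq2 called Btg2 higher in Pds5a-KO siPds5b than in Pds5a-KO siGLO (0.62, adjusted p = 0.00956), as did edgeR without siPds5b library 1 (0.82, adjusted p = 0.00769).

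Depletion of Pds5b in Pds5a-KO cells asked what loss of both PDS5 proteins adds to loss of PDS5A. Of the 10 genes, 2 rose (Trp53inp1 and Ccng1) and 0 fell, against 7.59% of all tested genes called in either direction and 4.0% called higher. The median log2 fold change of the 10 was 0.24, with -0.00038 over all genes. In this comparison same-numbered libraries deviated together in all 3 pairs (correlations of 0.69, 0.34 and 0.55 over 12029 genes), so each siPds5b library was also set beside the siGLO library of its number. The log2 ratios were 0.77, 0.57 and 0.48 for Cdkn1a, 0.52, 0.80 and 0.50 for Btg2, 0.43, 0.31 and 0.22 for Phlda3, 0.46, 0.42 and 0.21 for Ccng1 and 0.73, 0.85 and 0.55 for Trp53inp1. The ratio was positive in all 3 pairs for 9 genes, against 29.8% of all tested genes, and negative in all 3 for Trp53 (-0.19, -0.13 and -0.07), against 29.0%. Among the 9, the ratios were 0.23, 0.32 and 0.00033 for Mdm2 and 0.22, 0.04 and 0.24 for Bbc3, so that some were close to 0. The 9 genes did not vary independently, as Cdkn1a and Phlda3 had r = 0.92 over the 21 libraries. The library number was also fitted as a block. Its effects were common to all 7 conditions, including those whose same-numbered libraries did not deviate together. With this block, 5 of the 10 genes were called, all higher, against 10.5% of all genes called and 5.73% called higher. The 3 added were Cdkn1a (log2 fold change 0.59, adjusted p = 0.000214, against 0.174 without the block), Btg2 (0.61, adjusted p = 0.000277, against 0.0568) and Phlda3 (0.31, adjusted p = 0.009, against 0.291). With the 7 libraries numbered 1 left out, an alternative chosen after seeing the data, Btg2, Ccng1, Cdkn1a and Trp53inp1 were called. Nanog, a core gene of the mESC state, went over the same comparison from 5658, 6471 and 6691 to 2602, 3594 and 3515 (-0.96 ± 0.13 (SE), adjusted p = 3.31e-05). Its part in these changes was not tested.

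**Figure D3:**
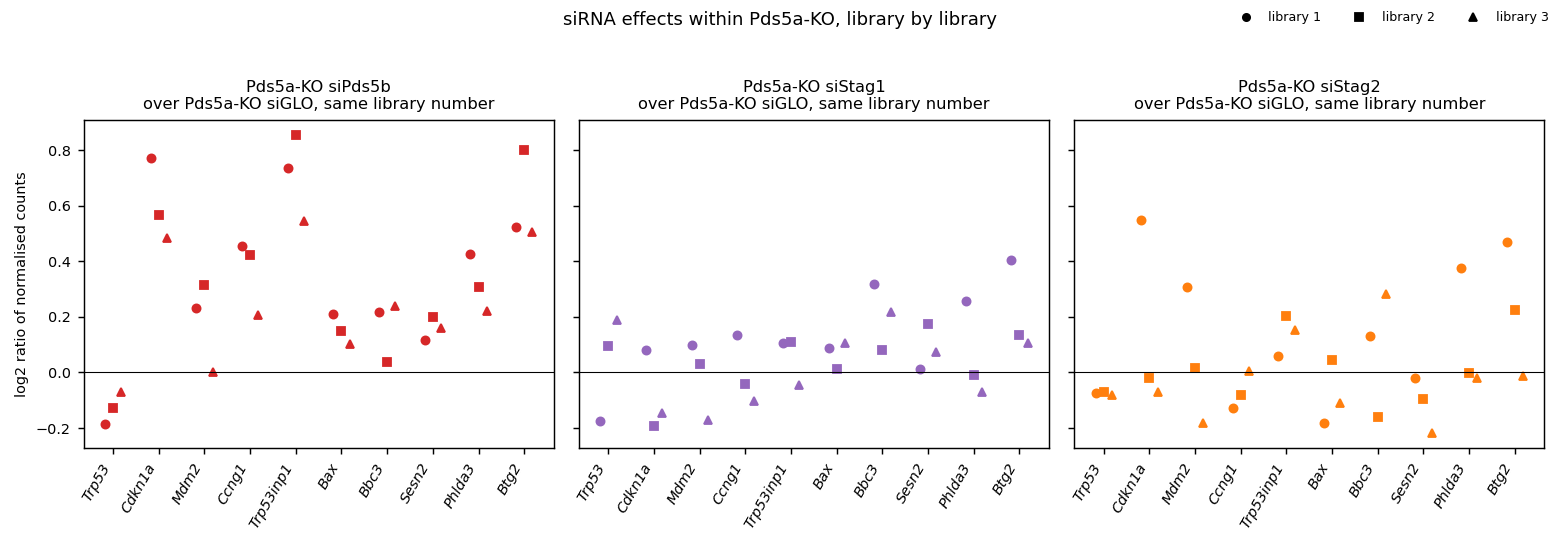
Log2 ratio of normalised counts (vertical axes) of each siRNA condition over Pds5a-KO siGLO for the 10 p53 genes (horizontal axes), taken between libraries of the same number, with 1 symbol per pair. With siPds5b, 9 genes are above 0 in all 3 pairs, Mdm2 by only 0.00033 in 1 of them. Cdkn1a is at 0.48 to 0.77 and Trp53inp1 at 0.55 to 0.85. With siStag1 and siStag2 the pairs lie on both sides of 0 for most genes.

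The depletions of STAG1 and STAG2 asked the same for cohesin subunits that PDS5 proteins work with. None of the 10 genes was called by edgeR for siStag1 or siStag2 relative to Pds5a-KO siGLO, where 0.0936% and 2.24% of all genes were called. None had an unadjusted p under 0.05 in either, and the block, for which all same-numbered pairs again correlated, added none. The log2 fold changes ranged from -0.11 (Cdkn1a) to 0.20 (Bbc3) with siStag1 and from -0.10 (Sesn2) to 0.20 (Btg2) with siStag2. Set side by side in the comparisons added later, Pds5a-KO siPds5b had the same 2 genes higher, Trp53inp1 and Ccng1, than siStag1 (7.36% of all genes called, 3.83% higher) and than siStag2 (3.96% called, 2.04% higher). Same-numbered pairs also deviated together between siPds5b and siStag1, and there the block added Cdkn1a (0.69, adjusted p = 4.3e-05), with 10.3% of all genes called. Without the block the Cdkn1a difference was 0.69 ± 0.27 (SE), adjusted p = 0.107.

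Relative to WT siGLO, few of the 10 genes differed in any condition. In Pds5a-KO siGLO 0 were called, while 17.8% of all tested genes were, and 1 of the 10 (Ccng1) had an unadjusted p under 0.05. In Pds5b-KO siGLO 1 was called, Mdm2, against 18.2% of all genes called and 9.64% called higher. Sesn2, whose product restrains mTORC1 signalling, held 1487, 1497 and 1849.8 counts in WT siGLO and 2289, 1975 and 1789.9 in Pds5b-KO (0.32 ± 0.12 (SE), adjusted p = 0.0416). Bbc3 held 675, 963 and 927 and 891, 1076 and 1262 (0.33 ± 0.13 (SE), adjusted p = 0.0601). Both groups overlapped and neither gene was called. In Pds5a-KO siPds5b 1 was called, Trp53inp1, against 32.0%, and Btg2 was at 0.50 ± 0.21 (SE), adjusted p = 0.0606, passing without siPds5b library 1 (0.69, adjusted p = 0.00659). With the 7 libraries numbered 1 left out, Btg2, Mdm2 and Trp53inp1 were called. In Pds5a-KO siStag1 and siStag2 1 was called in each, Ccng1, against 20% of all genes called with siStag1 (9.37% lower) and 30.1% with siStag2 (13.9% lower). Trp53inp1 in siStag2 was above every WT siGLO library (0.28 ± 0.09 (SE), adjusted p = 0.0197) and passed without siStag2 library 1 (0.37, adjusted p = 0.00528). The comparisons share the WT siGLO libraries.

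**Figure D4:**
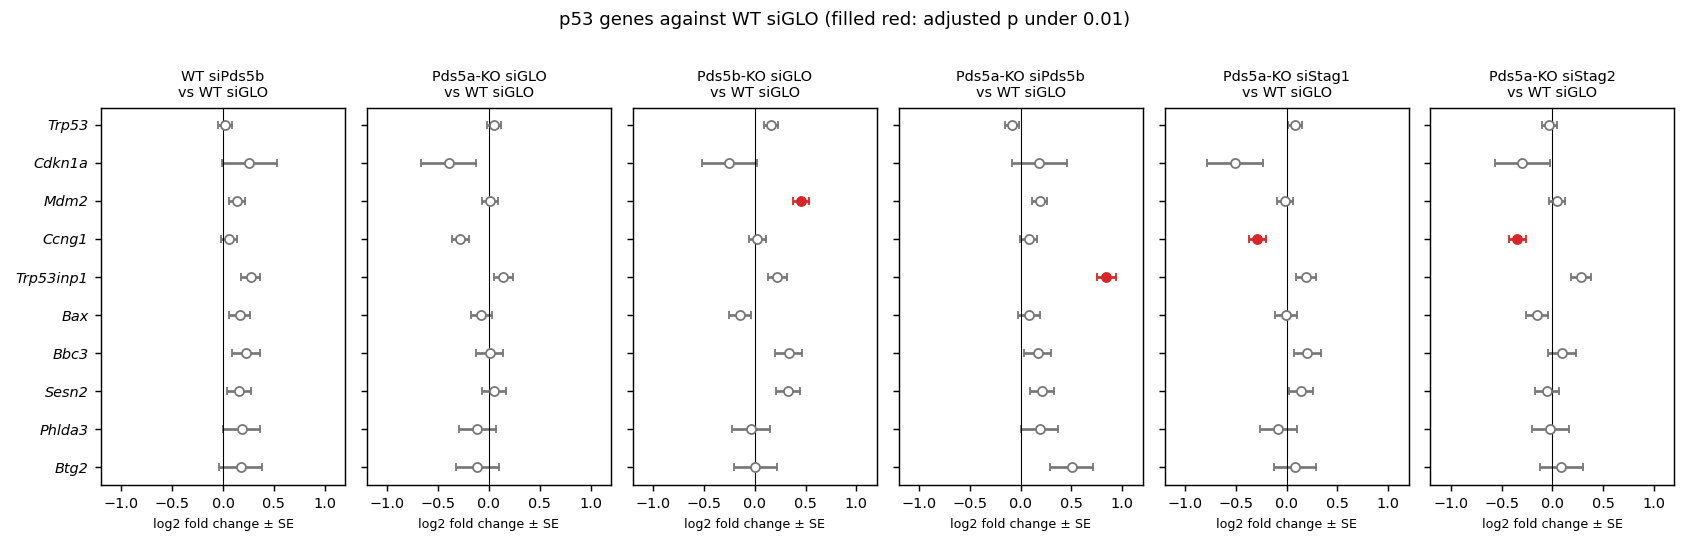
Log2 fold change with its SE (horizontal axes) of the 10 p53 genes (rows) in 6 conditions relative to WT siGLO, 3 libraries each. Filled red points have an adjusted p under 0.01 over all genes: Mdm2 in Pds5b-KO siGLO at 0.45, Trp53inp1 in Pds5a-KO siPds5b at 0.84, and Ccng1 at -0.29 with siStag1 and -0.34 with siStag2.

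Acute depletion of Pds5b in WT cells changed almost nothing at this threshold: 0.00668% of all genes were called, which is 1 gene, the targeted Pds5b, and 0 of the 10. The log2 fold changes of the 10 genes were nonetheless all above 0, from 0.02 (Trp53) to 0.27 (Trp53inp1), with a median of 0.17 against 0.0017 over all genes. The fibroblast or feeder markers moved with this comparison, as 5 of 6 had a log2 fold change above 0 (median 0.64, 0 called) and their sums did not overlap, and their part was not tested. Same-numbered pairs correlated in this comparison too, and 8 of the 10 genes were higher in all 3 pairs, against 16.6% of all tested genes. Bax, an executor of apoptosis at mitochondria, held 3675, 3844 and 3853 counts in WT siGLO and 4618, 4195 and 3921 in WT siPds5b (0.16 ± 0.11 (SE), adjusted p = 1). With the block 0 of the 10 were called, and 1 had an unadjusted p under 0.05 without it (631 of all genes). Between the genotypes treated with siPds5b, 1 of the 10 differed, Trp53inp1, against 30.6% of all genes. Between the knockouts 2 differed, Mdm2 and Ccng1, both lower in Pds5a-KO, against 19.2% of all genes called and 9.46% called lower, and with the libraries numbered 1 left out 1 was called, Mdm2. Against Pds5b-KO siGLO, Pds5a-KO siPds5b had Trp53inp1 higher and Trp53 and Mdm2 lower, with 26.2% of all genes called.

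A wider list of 47 genes of the p53 pathway, in 5 groups, was read in the same way, and 46 of them were tested (Trp63 was under the count filter). In Pds5a-KO siPds5b relative to WT siGLO 14 rose and 10 fell, with 17.4% and 14.6% of all genes called in those directions, and a median log2 fold change of -0.03 against -0.0013 over all genes. In Pds5b-KO siGLO 7 rose and 3 fell (18.2% of all genes called), in Pds5a-KO siGLO 5 and 5 (17.8%), in Pds5a-KO siStag1 5 and 4 (20%), and in Pds5a-KO siStag2 12 and 8 (30.1%). None was called in WT siPds5b (0.00668%). Relative to Pds5a-KO siGLO, siPds5b raised 4 and lowered 2 (7.59% of all genes called), none was called with siStag1 (0.0936%), and siStag2 raised 1 and lowered 1 (2.24%). In Pds5a-KO siPds5b relative to WT siGLO, among 10 other targets linked to cell death 6 rose and 2 fell. Among 10 linked to repair and metabolism 0 rose and 4 fell. Relative to Pds5a-KO siGLO, 2 were higher and 0 lower in the cell death group. In the repair and metabolism group 0 were higher and 2 lower in that comparison.

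Pmaip1, in the cell death group, encodes the BH3-only death factor NOXA. It held 1755, 1650.3 and 1479 counts in WT siGLO, 1755, 1827 and 1847 in Pds5a-KO siGLO and 3851, 3803 and 3018 in Pds5a-KO siPds5b. The last 3 were above every library of the other 6 conditions. The change was 1.13 ± 0.10 (SE), adjusted p = 4.35e-09, relative to WT siGLO and 0.98 ± 0.10 (SE), adjusted p = 3.88e-07, relative to Pds5a-KO siGLO. Pds5b-KO siGLO moved the other way, with 929, 1035 and 1231 (-0.61 ± 0.10 (SE), adjusted p = 8.12e-05). Pmaip1 was also called higher than WT siGLO in Pds5a-KO siStag1 (0.36, adjusted p = 0.00789) and siStag2 (0.37, adjusted p = 0.00487), each passing in 7 of 12 alternative fits. Pidd1, which encodes the core of the PIDDosome that activates caspase-2, was higher than WT in Pds5b-KO siGLO and lower in Pds5a-KO siPds5b. It held 575, 656 and 608 counts in WT siGLO, 1249, 1488 and 1375 in Pds5b-KO siGLO and 494, 378 and 464 in Pds5a-KO siPds5b, that is 1.16 ± 0.09 (SE), adjusted p = 3.61e-09, and -0.46 ± 0.10 (SE), adjusted p = 0.00047. Pidd1 was already called lower in Pds5a-KO siGLO (-0.35, adjusted p = 0.00751), passing in 5 of 12 alternative fits. With siPds5b relative to Pds5a-KO siGLO, 0 genes of the cell death group were called lower. The count tables list Pidd1 as Lrdd and Tigar as 9630033F20Rik, matched through RefSeq synonyms.

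Other genes that rose in Pds5a-KO siPds5b relative to WT siGLO were the death receptor gene Tnfrsf10b (0.48) and Perp of desmosomes and membranes (0.93). Apaf1 of the apoptosome (0.38), the nuclease gene Aen (0.31) and Fas rose as well. Fas stood on few counts, 3.44, 14.6 and 6.62 in WT siGLO and 25.7, 40.4 and 21.9 in Pds5a-KO siPds5b (1.88 ± 0.50 (SE), adjusted p = 0.00376). Siva1 fell by 0.47. Perp and Tnfrsf10b also stood at 0.78 (adjusted p = 0.0145) and 0.59 (adjusted p = 8.22e-05) with siStag2. The Perp call in Pds5a-KO siPds5b was lost without WT siGLO library 1 (0.0208) or 2 (0.0148) or without siPds5b library 2 (0.0235) or 3 (0.0183).

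**Figure D5:**
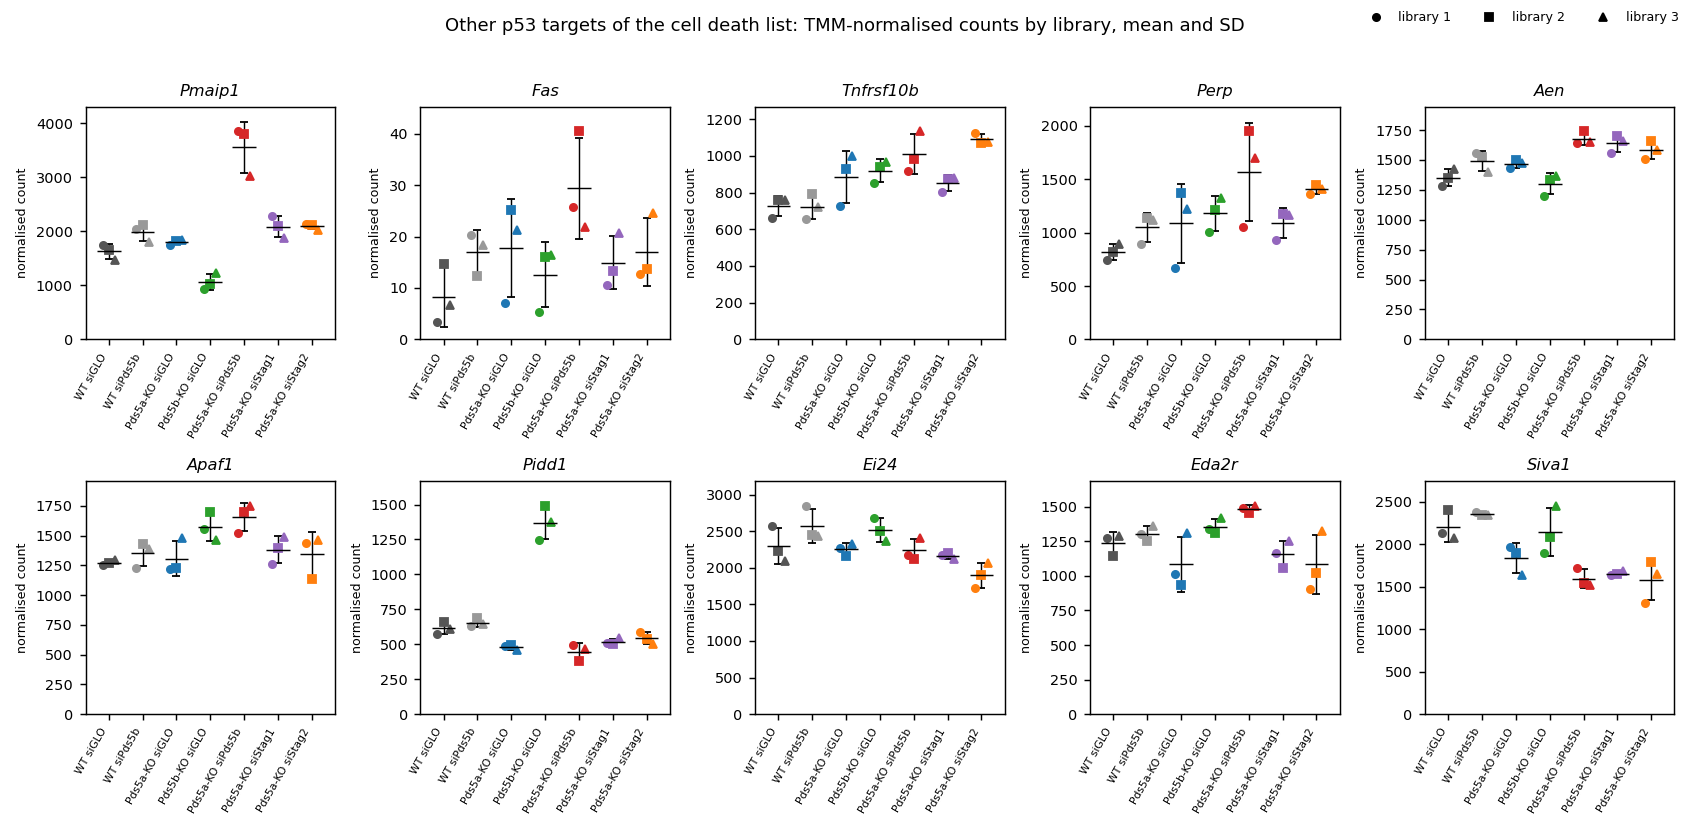
Normalised counts (vertical axes, from 0) of the 10 other p53 targets linked to cell death in each of the 7 conditions (horizontal axes), with points for libraries (symbols give the library number) and lines for mean and SD. Pmaip1 is highest in Pds5a-KO siPds5b, at 3018 to 3851, and lowest in Pds5b-KO siGLO, at 929 to 1231, whereas Pidd1 is highest in Pds5b-KO siGLO, at 1249 to 1488.

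In the repair and metabolism group, Gdf15, encoding a stress cytokine, fell most. Its counts were 124, 101 and 113 in WT siGLO, 33.5, 43.0 and 43.4 in Pds5a-KO siGLO and 27.5, 28.0 and 29.9 in Pds5a-KO siPds5b, without overlap with WT (-1.49 ± 0.26 (SE), adjusted p = 0.000155, and -1.99 ± 0.28 (SE), adjusted p = 3.27e-06). Tigar, which lowers glycolytic flux, held 1536, 1419 and 1551 counts in WT siGLO and 1198, 1049 and 892 in Pds5a-KO siPds5b (-0.52 ± 0.09 (SE), adjusted p = 6.84e-05). Rrm2b, a p53-regulated ribonucleotide reductase subunit, was -0.64 in Pds5a-KO siGLO (adjusted p = 0.000332) and -0.58 in Pds5a-KO siPds5b (adjusted p = 0.000446). With siStag2, Gdf15 (-1.87), Tigar (-0.51) and Rrm2b (-0.57) were also called lower than WT siGLO, each in all 12 alternative fits. With siStag1, Gdf15 (-1.33) and Rrm2b (-0.46) were called lower than WT siGLO, in 12 and 5 of 12 alternative fits, and Tigar was not. The glutaminase gene Gls2 was -0.49 with siPds5b relative to Pds5a-KO siGLO (adjusted p = 0.000794).

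Among 7 other targets of the cell cycle, 3 rose and 0 fell in Pds5a-KO siPds5b relative to WT siGLO. Of all genes 17.4% were called higher and 14.6% lower there. The 3 were Plk2 (1.11), Sfn encoding 14-3-3 sigma (0.99) and the DNA damage-inducible Gadd45a (0.64). Sfn was already higher in Pds5a-KO siGLO, at 2409, 4804 and 3935 against 1715, 1864 and 1783 in WT siGLO (1.06 ± 0.27 (SE), adjusted p = 0.00881). Gadd45a was called higher in all 5 knockout conditions, at 0.86 in Pds5a-KO siGLO, 0.77 in Pds5b-KO siGLO, 0.96 with siStag1 and 0.70 with siStag2. Plk2 was also called with siStag2 (0.98, adjusted p = 0.00469). Sesn1, a paralogue of Sesn2, fell in Pds5b-KO siGLO (-0.70 ± 0.11 (SE), adjusted p = 3.96e-05). None of the 7 was called with siPds5b relative to Pds5a-KO siGLO, where 7.59% of all genes were. In Pds5a-KO siStag2 Sfn was at 1.46 ± 0.27 (SE), adjusted p = 0.000572, relative to WT siGLO, and passed in all 12 alternative fits. The Sfn calls in Pds5a-KO siGLO and Pds5a-KO siPds5b did not hold without any 1 of 5 of the 6 libraries compared. Their adjusted p then reached 0.0496 in Pds5a-KO siGLO and 0.0394 in Pds5a-KO siPds5b. The Gadd45a call in Pds5a-KO siPds5b was lost without any 1 of 4 libraries, with adjusted p up to 0.0494.

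Among 11 family members and regulators of p53, 3 rose and 3 fell in Pds5a-KO siPds5b relative to WT siGLO. Of all genes 17.4% were called higher and 14.6% lower in that comparison. Cdkn2a, whose locus encodes both p16 and the MDM2 inhibitor p19ARF, held 198, 204 and 194 counts in WT siGLO, 241, 457 and 447 in Pds5a-KO siGLO and 363, 484 and 483 in Pds5a-KO siPds5b (0.95 ± 0.22 (SE), adjusted p = 0.00321, and 1.16 ± 0.22 (SE), adjusted p = 0.000284). Counts per gene do not separate the 2 transcripts, and the Pds5a-KO siGLO call was lost without any 1 of 5 libraries (adjusted p up to 0.022). Pds5b-KO siGLO, at 122, 169 and 231, overlapped WT. The kinase gene Hipk2 (0.69) also rose, and was called at 0.70 in Pds5b-KO siGLO and 0.80 with siStag2. Trp53bp1, a DNA break adaptor, rose in all 5 knockout conditions, by 0.49 in Pds5a-KO siGLO, 0.45 in Pds5b-KO siGLO, 0.50 with siPds5b, 0.55 with siStag1 and 0.47 with siStag2. In Pds5a-KO siPds5b the checkpoint kinase genes Chek1 (-0.46) and Chek2 (-0.32) and Mdm4, the paralogue of Mdm2 (-0.45), fell. Chek1 was also called lower than WT siGLO with siStag2 (-0.50, adjusted p = 2.15e-05) and with siStag1 (-0.31, adjusted p = 0.00398). The siStag2 call passed in all 12 alternative fits and the siStag1 call in 8 of 12.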

How the data were processed

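Poly-A RNA-seq of 21 mESC libraries (7 conditions, 3 each) was analysed from the gene counts that the authors deposited. The submitters' processing notes name STAR, DESeq2 and the mm10 build. The strand setting of the counting is not given in the sources used here. The deposited counts are whole reads per gene and were not normalised. Library totals were 17311090 to 23989198, and the number of libraries per condition limits the precision. Groups came from the sample titles.

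One model of the 7 conditions was fitted with edgeR 4.0.16 in R 4.3.3 (TMM factors, default filter on low counts, robust quasi-likelihood test), and p-values were adjusted by Benjamini-Hochberg over 14963 genes. A gene was called at an adjusted p under 0.01. The SE is the size of the log2 fold change over the square root of F. The alternatives were RLE factors, no filter on low counts, the library number as a block common to all 7 conditions, only the conditions compared, DESeq2 1.42.0, and each library left out in turn. Comparisons of Pds5a-KO siPds5b with siStag1, siStag2 and Pds5b-KO siGLO, and a fit without the libraries numbered 1, were added after seeing the data. On simulated counts for Pds5a-KO siPds5b against WT siGLO (14963 genes), the test recovered 95% of 200 genes changed by 1 on the log2 scale, with 1.04% false calls. Only that size of change was simulated. In the real libraries of these conditions the largest change of the p53 genes was 0.84 (Trp53inp1). Recovery of changes as small as theirs was therefore not tested.

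The library numbers come from the titles. They were taken to pair samples where all 3 correlations of same-numbered deviations from the condition mean were above 0.1, which held for WT siPds5b against WT siGLO, for each siRNA in Pds5a-KO against siGLO and for siPds5b against siStag1. The members and gene lists were chosen with earlier results of these data known. Named genes were the 10 members, the targeted genes, up to 4 genes of each wider list with the largest called change, where mean log2 CPM was 1 or more, and the 5 genes most correlated with Cdkn1a. Other genes named were chosen after their values were seen. Promoter windows and sequences were from RefSeq GRCm38.p6, and exon lengths and overlaps from the reference annotation. Figures were drawn with matplotlib 3.10.9.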

Additional observations from a re-analysis of the deposited data

Results flagged for a closer look

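The effect of siPds5b on Pmaip1 differed between genotypes. It was larger in Pds5a-KO than in WT by 0.69 ± 0.14 on the log2 scale (SE, edgeR's quasi-likelihood interaction test, adjusted p = 0.00551). Counts rose from 1755, 1827 and 1847 to 3851, 3803 and 3018 in Pds5a-KO, and were 1755, 1650.3 and 1479 without and 2049, 2109.6 and 1807 with siPds5b in WT. The difference passed the threshold in 9 of 18 alternatives, with adjusted p of up to 0.0366, reached without the libraries numbered 1. It was lost without any 1 of 8 of the 12 libraries (WT siGLO 1 or 2, WT siPds5b 1 or 3, Pds5a-KO siGLO 1 or 2, Pds5a-KO siPds5b 1 or 2), with adjusted p up to 0.0211.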

How the results depend on the processing

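Of 150 fold changes of the 10 genes under 1860 alternative values, 114 changed sign, none of them while called, and the largest of these had a size of 0.14. Trp53inp1 in the 6 comparisons named above and Mdm2 in Pds5b-KO passed in every alternative run. Where a count of calls moved, the cause was not tested, and fewer libraries entered the fits of only the compared conditions and of left-out libraries. Where the numbers were not taken to pair the samples, the replicate block called 2 of the 10 genes instead of 0 in Pds5a-KO siGLO (Ccng1 and Cdkn1a), 2 instead of 1 in Pds5b-KO siGLO, Pds5a-KO siPds5b, siStag1 and siStag2 relative to WT, and 5 instead of 3 in Pds5a-KO siPds5b relative to Pds5b-KO. Where they were, it called 5 instead of 2 with siPds5b relative to siGLO in Pds5a-KO, and changed no count for WT siPds5b, siStag1 or siStag2. RLE factors and DESeq2 each called 1 in Pds5a-KO siGLO. Fits of only the compared conditions called 1 with siPds5b relative to Pds5a-KO siGLO, siStag2 and Pds5b-KO, and 1 between the knockouts. Without the libraries numbered 1, 3 were called in Pds5a-KO siPds5b relative to WT, 2 in siStag1, 2 in siStag2, 4 with siPds5b relative to Pds5a-KO siGLO, siStag1 and siStag2, 1 between the knockouts and 2 between the genotypes with siPds5b.

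Among the 46 wider genes, fits of only the compared conditions called 5 instead of 10 in Pds5a-KO, 16 instead of 10 in Pds5b-KO, 1 instead of 6 with siPds5b and 0 instead of 2 with siStag2 relative to Pds5a-KO siGLO, and 1 instead of 3 relative to siStag1 and to siStag2. The block called 20 in Pds5b-KO, 6 relative to siStag1 and 5 relative to siStag2. DESeq2 called 17, 5 and 6 there, and RLE factors 1 relative to siStag2. Without the libraries numbered 1, 1 was called in WT siPds5b, 0 with siStag2 relative to Pds5a-KO siGLO, 0 for the interaction and 1 relative to siStag2.

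Leaving out 1 library at a time gave, for the 10 genes, 0 to 1 in Pds5a-KO, 1 to 2 in Pds5a-KO siPds5b and 0 in every case for siStag1 relative to WT, 1 to 3 with siPds5b relative to siGLO, 1 to 2 relative to siStag1 and to siStag2, 1 to 4 relative to Pds5b-KO and 1 to 2 between the knockouts. For the wider genes it gave 4 to 10 in Pds5a-KO, 4 to 9 in siStag1, 0 to 2 for siStag2 relative to Pds5a-KO siGLO, 0 to 1 for the interaction, 1 to 3 relative to siStag1 and 1 to 2 relative to siStag2.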

Other observations

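Among 8 cell cycle genes that p53 is known to lower through p21, 2 rose and 1 fell in Pds5a-KO siPds5b relative to WT siGLO, with a median log2 fold change of 0.0070, against 17.4% of all genes called higher and 14.6% called lower. Cdc20, an activator of the anaphase-promoting complex, was at 0.64, the checkpoint kinase gene Bub1 at 0.37 and the cyclin gene Ccnb2 at -0.39. Cdc20 was also called higher than WT siGLO in Pds5a-KO siGLO (0.34), Pds5b-KO siGLO (0.31), siStag1 (0.40) and siStag2 (0.45). Each of these calls passed in all 12 alternative fits. Relative to Pds5a-KO siGLO, siPds5b raised Cdc20 by 0.30, called in 9 of 12 alternative fits.

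The genes outside all lists whose condition means followed Cdkn1a most closely were 0610005C13Rik, 9530053A07Rik, Ddr2, Col6a4 and Rbm18, with Pearson's r of 0.98, 0.97, 0.97, 0.97 and 0.97 over 7 conditions. Over the 21 libraries r was 0.39, 0.72, 0.31, 0.41 and -0.03. All but Rbm18 stood on few counts, with condition means between -1.14 and 1.19 log2 CPM. Rbm18 was nearly flat, with condition means between 5.08 and 5.21. The points share libraries and were chosen for their likeness, so these values are a description. Between members, Cdkn1a and Phlda3 had r = 0.92 over the 21 libraries, which share their library numbers.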
